A study of Mus musculus with 6 samples.

Results

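Mediator is the multi-subunit complex that passes signals from DNA-bound transcription factors to RNA polymerase II, and the transcripts of its subunits were compared by RNA-Seq between WT mice and mice lacking the RNA-binding protein LSM14B (Lsm14b-KO). The cells were fully-grown oocytes (FGOs) at the germinal vesicle (GV) stage, before meiosis resumes. The Mediator genes were listed by symbol, as every gene named Med with a number (with or without a final l) plus Cdk8, Cdk19 and Ccnc. This set was chosen with earlier results of these data known. The symbol rule gave 33 of the 24255 genes in the deposited table. Of these, 25 reached 1 FPKM (fragments per kilobase of transcript, scaled to the library's mapped fragments) in at least 1 library and were tested, and 8 did not and were not tested. The subunits are placed in a head and a middle that contact the polymerase, a tail that receives activators, the MED14 backbone that joins them, and a kinase module (CDK8 or CDK19, cyclin C, MED12 or MED12L, MED13 or MED13L) that docks reversibly and keeps the polymerase out. FGOs are largely silent in transcription and live on mRNAs stored during growth, so a level measured here is mostly that of a stored transcript.

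The WT oocytes came from C57BL/6J mice. The Lsm14b-KO oocytes came from females on the same background that carried Lsm14b tm1a(KOMP)Mbp, a knockout-first, reporter-tagged insertion, on both alleles, so that every cell of the animal carries it and not the oocyte alone. Females of both genotypes had received PMSG (5 IU), a gonadotropin that makes follicles grow, and oocytes were taken after 46 h. The age of these females was not given in the sources used here. Each genotype had 3 libraries of 20 pooled oocytes, amplified by Smart-seq2. Where 3 values follow each other for a genotype, they are those of replicates 1, 2 and 3 in that order. In such pools, fewer oocytes with a transcript and less of it in each oocyte cannot be told apart, and FPKM gives a share of the library and not an amount per oocyte.

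Lsm14b itself was at 2.77, 3.98 and 1.72 FPKM in WT, and its Lsm14b-KO values were 0, 0 and 0.10 FPKM. All 10 oocyte markers reached 1 FPKM (summed level 6954 to 8856 FPKM in WT and 6740 to 8609 FPKM in Lsm14b-KO). Of 13 cumulus and granulosa cell markers, 3 did so (summed level 9.53 to 13.5 FPKM in WT and 6.09 to 10.5 FPKM in Lsm14b-KO), with Amh, Foxl2, Inhba and Cyp11a1 at 0 throughout. The 5 globin genes were at 0, as were 3 of 4 immune markers. Of these markers 3 passed the test between genotypes: Nobox and Kit, of the oocyte list, were higher in Lsm14b-KO (log2 fold changes 2.25 and 0.84, adjusted p = 0.00640 and 0.0441), and Cyp19a1, of the granulosa list, was lower (-0.98, adjusted p = 0.0426). Their part in the Mediator results was not tested. Lsm14b-KO replicate 1 stood apart from its group. Its FPKM values summed to 1029728, against 564671 and 676656 in Lsm14b-KO replicates 2 and 3 and 1141324 to 1244182 in the WT libraries. Relative depth, set to 1 in WT replicate 1, was 1.03 to 1.14 in the other WT libraries and 1.33, 1.95 and 2.17 in the Lsm14b-KO replicates. Results that rest on replicate 1 are therefore given with and without it.

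The Mediator transcripts of WT oocytes were unequal by orders of magnitude. In WT mean level, 8 genes were at 100 FPKM or more, 4 between 10 and 100, 9 between 1 and 10, and 12 under 1. The 8 most abundant (Med21, Med10, Med7, Med27, Med31, Med4, Med6 and Med28) held 96.5% of the summed Mediator FPKM. Med21 and Med10, both small subunits of the middle, ranked 122 and 126 among the 6398 tested genes in WT level. The scaffold gene Med14, whose product joins the other modules, ranked 5593. Short transcripts were the abundant ones: over the 33 Mediator genes, WT level on the log2 scale and log2 transcript length gave Pearson's r = -0.72 and Spearman's rho = -0.72, as a description, since the points share their libraries. Over all 23860 genes of the table with a known length, r was -0.015 and rho was 0.18. That set is mostly unexpressed, since 17857 of the 24255 genes were under 1 FPKM in every library. No value was computed over expressed genes alone, so whether this relation is particular to Mediator was not tested. The plot of levels in each library shows this ladder of levels by module.

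**Figure D1:**
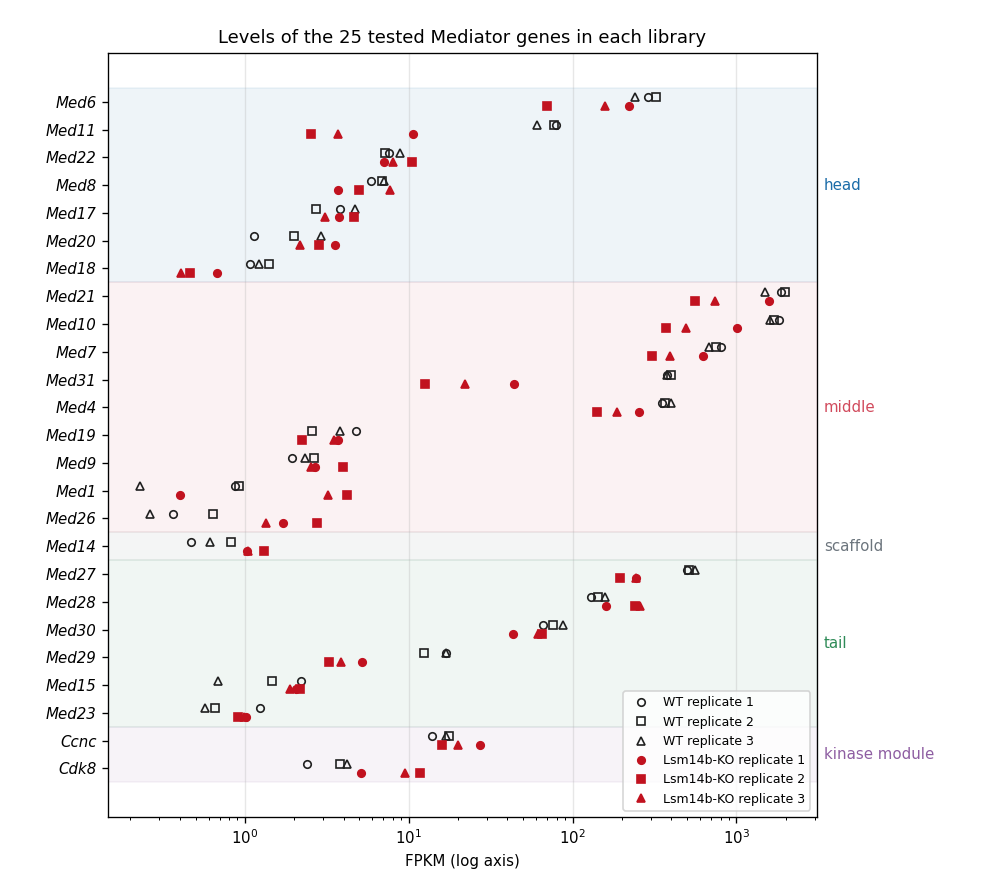
FPKM on a log axis in each of the 3 WT (open symbols) and 3 Lsm14b-KO (filled symbols) libraries for the 25 tested Mediator genes, grouped by module. The groups stood farthest apart in Med31 (375 to 398 against 12.5 to 43.9 FPKM) and Med11 (60.9 to 78.8 against 2.52 to 10.6 FPKM), while Med17, Med22 and Ccnc overlapped.

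In Lsm14b-KO oocytes, 7 of the 25 tested Mediator genes passed the test (limma on log2(FPKM + 1), adjusted p under 0.05 over all 6398 tested genes). Among all tested genes 1383 did so (21.6%). Med31, Med11, Med29, Med10 and Med27 fell, which makes 5 of 25 against 15.2% of all tested genes. Cdk8 and Med26 rose, which makes 2 of 25 against 6.38% of all tested genes. WT and Lsm14b-KO libraries did not overlap in 14 of the 25 genes, against 45.0% of all tested genes in either direction. Of the 14, 10 were lower and 4 higher in Lsm14b-KO, and that split was not computed over all tested genes. Read against these shares, the counts alone do not mark Mediator off from other genes, and it was the size of the falls in Med31 and Med11 that stood out among its members. Fold changes were positive in 12 and negative in 13 members, with a median log2 fold change of -0.18, beside -0.075 over all tested genes. The summed Mediator level was 6339, 6377 and 5718 FPKM in WT. It was 4255, 2037 and 2626 FPKM in Lsm14b-KO. As a share of each library's summed FPKM, it was 0.501% to 0.544% in WT and 0.361% to 0.413% in Lsm14b-KO libraries.

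**Figure D2:**
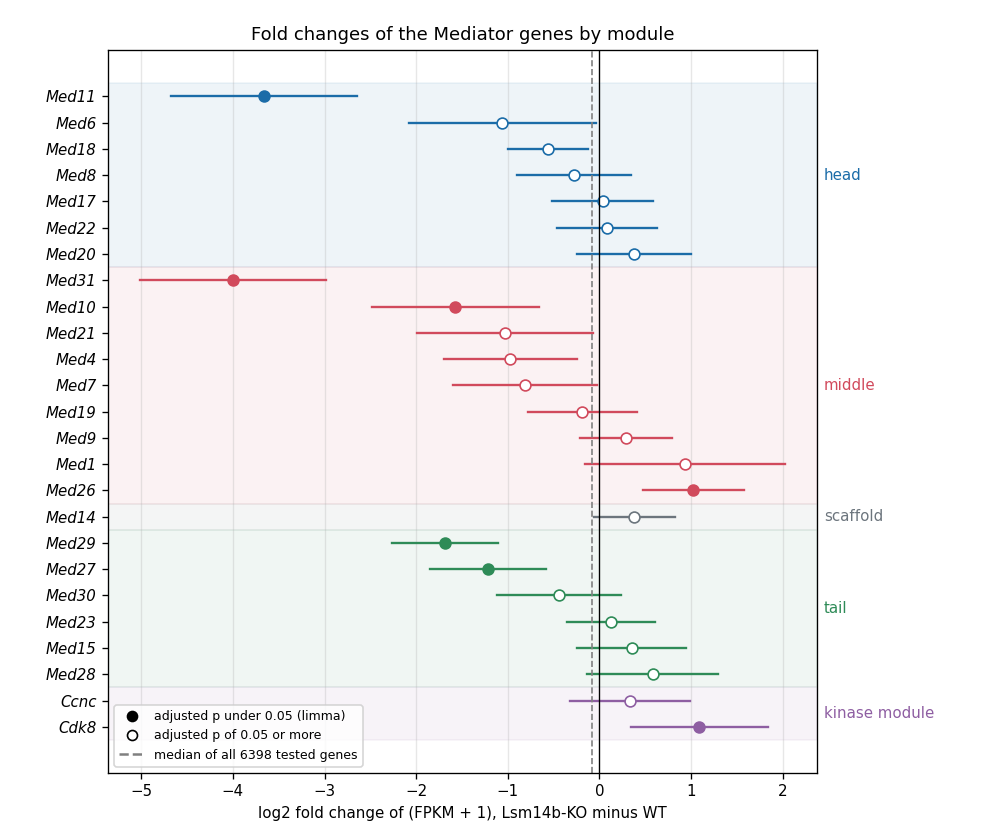
Log2 fold change of (FPKM + 1), Lsm14b-KO minus WT, for the 25 tested Mediator genes by module, with 95% confidence intervals from limma. Filled points passed the test at an adjusted p under 0.05, and the dashed line marks the median of all 6398 tested genes (-0.075). Med31 (-4.00) and Med11 (-3.66) lie far to the left of every other member.

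The largest fall was that of Med31, a small and highly conserved subunit of the middle. Its level was 375, 398 and 375 FPKM in WT and 43.9, 12.5 and 21.9 FPKM in Lsm14b-KO. Every Lsm14b-KO library lay far below every WT library, and the mean FPKM was 14.7 times higher in WT. This is a log2 fold change of -4.00 with an SE of 0.44 (adjusted p = 0.00193). Its rank in level among the 6398 tested genes went from 342 in WT to 1115 in Lsm14b-KO. Med11, a small head subunit that pairs with MED22, was next. It was at 78.8, 77.4 and 60.9 FPKM in WT and 10.6, 2.52 and 3.69 FPKM in Lsm14b-KO. Again no library overlapped, with a log2 fold change of -3.66 (SE 0.44 and adjusted p = 0.00232) and a mean FPKM 12.9 times higher in WT. Its partner in the head, Med22, had 7.60, 7.21 and 8.86 FPKM in WT and 7.04, 10.5 and 7.97 FPKM in Lsm14b-KO libraries, and its groups overlapped (log2 fold change 0.084, SE 0.24, adjusted p = 0.803).

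Med31 and Med11 lie on chromosome 11 (GRCm38), Med31 at 72211724 to 72215592 on the minus strand and Med11 at 70451919 to 70453727 on the plus strand, and both are protein coding. An exon of Med31 overlaps 4930563E22Rik, a gene on the opposite strand that was listed at 0 in all 6 libraries, and no other gene overlaps Med11. The deposited locus of Med31 holds 2 genes, and a listed 0 can be an estimate that failed. Whether the libraries kept strand is not stated, so reads of this pair cannot be told apart. No near-identical copy of either was found (95% identity over at least 200 nt). The 250 bases before their RefSeq start sites (GRCm38.p6) are shown with those of Med26, the member that rose most by ratio, since these 3 genes mark the ends of the response. The capitals in the Med26 window mark a GC box.

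Med31 (chr11:72215593-72215842, minus strand): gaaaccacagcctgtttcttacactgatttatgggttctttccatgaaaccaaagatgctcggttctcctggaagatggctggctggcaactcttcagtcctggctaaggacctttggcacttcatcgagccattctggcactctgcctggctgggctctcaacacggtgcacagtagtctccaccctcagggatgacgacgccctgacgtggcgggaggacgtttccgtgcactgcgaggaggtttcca
Med11 (chr11:70451668-70451917, plus strand): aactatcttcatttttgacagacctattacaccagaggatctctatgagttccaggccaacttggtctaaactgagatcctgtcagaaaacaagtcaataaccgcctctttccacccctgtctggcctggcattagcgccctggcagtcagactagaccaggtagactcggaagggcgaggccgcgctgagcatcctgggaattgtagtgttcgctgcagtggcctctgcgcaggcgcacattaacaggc
Med26 (chr8:72548311-72548560, minus strand): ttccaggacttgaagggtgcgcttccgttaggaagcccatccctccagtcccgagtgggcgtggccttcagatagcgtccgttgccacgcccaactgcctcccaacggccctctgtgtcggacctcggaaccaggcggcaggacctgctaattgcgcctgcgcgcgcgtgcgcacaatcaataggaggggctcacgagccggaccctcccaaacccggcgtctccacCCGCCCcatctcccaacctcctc

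RefSeq held such windows for 28 of the 33 Mediator genes (32 windows, since some genes have more than 1 start), and not for Cdk19, Med8, Med23, Med24 and Med30. Each window was searched on both strands for the letters of 5 promoter motifs. The GC box (GGGCGG) was in 62.5% of the Mediator windows and in 32.7% of all 32851 windows. The ETS core (CCGGAAG) was in 18.8% and 6.9%, the NRF1 core (GCATGCGC) in 12.5% and 2.3%, the CCAAT box (CCAAT) in 37.5% and 33.8%, and the TATA box (TATAAA) in 9.4% and 12.4%. Windows of the same gene can overlap, as in Med15 and Med7, so that 1 site can count more than once. The 4 Mediator windows with the NRF1 core came from Med15, Med17 and Med4 alone. The windows of Med31 and Med11 held none of these letters, and that of Med26 held 1 GC box. Those of Cdk8 and Med29 held at least 1 GC box, as did 1 window of Med10, whose other window held no motif. The windows of Med27 held no GC box, and 1 of them held a CCAAT box. The Mediator windows had a median GC content of 56.0% and a median of 15.0 CpG, against 52.4% and 6.0 over all windows. All windows together cover 27025 genes, whether expressed in these oocytes or not. No share was computed over expressed genes or over windows of like CpG content, so whether these shares are particular to Mediator was not tested. These matches describe the letters only, and binding was not measured.

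The other 3 falls were smaller. Med29, a tail subunit found in animals, was at 16.8, 12.5 and 16.9 FPKM in WT and 5.19, 3.28 and 3.85 FPKM in Lsm14b-KO. The groups did not overlap, and the log2 fold change was -1.69 (SE 0.25 and adjusted p = 0.00500). Med10, a conserved subunit of the middle and the second most abundant Mediator transcript, was at 1809, 1698.5 and 1591 FPKM in WT and 1007.5, 374 and 493 FPKM in Lsm14b-KO. Its log2 fold change was -1.57 (SE 0.40 and adjusted p = 0.0295), and Lsm14b-KO replicate 1 lay closest to the WT libraries. Med27, a tail subunit next to the head, was at 502, 517 and 561 FPKM in WT and 243, 196 and 243 FPKM in Lsm14b-KO. All Lsm14b-KO values were close together and below the WT values, with a log2 fold change of -1.22 (SE 0.28 and adjusted p = 0.0211). Med29 lies on chromosome 7 at 28386146 to 28392708 (minus strand), Med10 on chromosome 13 at 69802395 to 69816104 (plus strand) and Med27 on chromosome 2 at 29346819 to 29524793 (plus strand). Each has an exon that overlaps a gene model on the opposite strand (Gm44710, Gm26819 and Gm13402), and whether the libraries kept strand is not stated, so reads of the pairs cannot be told apart.

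Med26 and Cdk8 rose from low levels. Med26 encodes the subunit that docks elongation factors and is found in only some Mediator complexes. Its level was 0.36, 0.64 and 0.26 FPKM in WT and 1.71, 2.75 and 1.34 FPKM in Lsm14b-KO. All Lsm14b-KO libraries were above all WT libraries, the mean FPKM was 4.58 times higher, and the log2 fold change was 1.02 (SE 0.24 and adjusted p = 0.0231), which is small beside the ratio because 1 is added to these low values. Cdk8 encodes the kinase of the kinase module. It was at 2.38, 3.79 and 4.20 FPKM in WT and 5.13, 11.7 and 9.50 FPKM in Lsm14b-KO. The groups did not overlap, the mean FPKM was 2.54 times higher, and the log2 fold change was 1.09 (SE 0.32 and adjusted p = 0.0470), close to the threshold. Cdk8 (chromosome 5, 146231230 to 146302874, plus strand) has a processed pseudogene of near-identical sequence, Gm7107, so its value is uncertain where reads were shared. Med26 lies on chromosome 8 at 72494561 to 72548270 (minus strand) and overlaps the exon of Gm17435 on the opposite strand.

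Of the 7 head genes, Med11 alone passed the test. Med6, which helps hold the head to the middle, was at 289, 324 and 239 FPKM in WT and 222, 69.9 and 157 FPKM in Lsm14b-KO. These groups did not overlap, yet the spread among the Lsm14b-KO libraries was wide and the log2 fold change of -1.06 (SE 0.44) had an adjusted p of 0.116. Med18, whose product pairs with MED20, was at 1.08, 1.41 and 1.21 FPKM in WT and 0.67, 0.46 and 0.41 FPKM in Lsm14b-KO (log2 fold change -0.56, SE 0.19, adjusted p = 0.0668). Med20 was at 1.14, 1.99 and 2.89 FPKM in WT and 3.52, 2.85 and 2.15 FPKM in Lsm14b-KO, with a log2 fold change of 0.38 (SE 0.27). Its groups overlapped, whereas those of Med18 did not. Med8 was at 5.90, 6.82 and 7.09 FPKM in WT and 3.70, 4.99 and 7.67 FPKM in Lsm14b-KO (log2 fold change -0.28, SE 0.27). Med17, the large core subunit of the head, was at 3.80, 2.73 and 4.70 FPKM in WT and 3.75, 4.65 and 3.09 FPKM in Lsm14b-KO (log2 fold change 0.035, SE 0.24, 95% interval -0.52 to 0.59). Both overlapped between genotypes.

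In the middle, Med31, Med10 and Med26 passed the test out of 9 genes, and the other abundant members had values in the same direction as Med10 without passing it. Med21, which forms a hinge with MED7, was at 1869, 1964 and 1495 FPKM in WT and 1576, 555 and 735 FPKM in Lsm14b-KO (log2 fold change -1.03, SE 0.42, adjusted p = 0.107). Med7 was at 804, 750.3 and 682 FPKM in WT and 628, 306 and 395 FPKM in Lsm14b-KO (log2 fold change -0.81, SE 0.34, adjusted p = 0.118). Med4, a structural subunit of the middle, was at 351, 364 and 397 FPKM in WT and 252, 142 and 187 FPKM in Lsm14b-KO (log2 fold change -0.97, SE 0.32, adjusted p = 0.0608). In each of these 3 genes Lsm14b-KO replicate 1 was the highest of its group, and in Med21 it lay within the WT range. Med4 has a near-identical processed pseudogene, Gm9434, and exons of Med21 overlap Gm6654 and Tm7sf3 on the opposite strand. Med1, the large subunit that receives nuclear receptors, was at 0.87, 0.92 and 0.23 FPKM in WT and 0.40, 4.20 and 3.20 FPKM in Lsm14b-KO. Here Lsm14b-KO replicates 2 and 3 were above every WT library and replicate 1 was among them (log2 fold change 0.93, SE 0.47, adjusted p = 0.175). Med9 was at 1.93, 2.65 and 2.32 FPKM in WT and 2.69, 3.96 and 2.53 FPKM in Lsm14b-KO (log2 fold change 0.29, SE 0.22). Med19 was at 4.79, 2.58 and 3.80 FPKM in WT and 3.68, 2.24 and 3.47 FPKM in Lsm14b-KO (log2 fold change -0.18, SE 0.26). Both of these overlapped. The scaffold gene Med14 was at 0.47, 0.82 and 0.61 FPKM in WT and 1.04, 1.30 and 1.04 FPKM in Lsm14b-KO, and its groups did not overlap (log2 fold change 0.38, SE 0.19, adjusted p = 0.172).

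In the tail, 6 of 9 genes were tested, and Med29 and Med27 passed. Med28 was at 130.0, 143 and 158 FPKM in WT and 159, 242 and 258 FPKM in Lsm14b-KO. Alone among the 8 most abundant Mediator transcripts it had a positive value, but the log2 fold change of 0.58 (SE 0.31) had an adjusted p of 0.192. Med30 was at 66.3, 75.6 and 86.7 FPKM in WT and 43.6, 64.8 and 61.2 FPKM in Lsm14b-KO (log2 fold change -0.44, SE 0.29). Med28 and Med30 each separated the genotypes by a narrow gap. Med15, which binds factors of the lipid and TGF-beta pathways, was at 2.21, 1.47 and 0.69 FPKM in WT and 2.06, 2.17 and 1.87 FPKM in Lsm14b-KO (log2 fold change 0.35, SE 0.26). Med23, which receives factors of the MAP kinase pathway, was at 1.24, 0.66 and 0.57 FPKM in WT and 1.01, 0.91 and 0.99 FPKM in Lsm14b-KO (log2 fold change 0.13, SE 0.21). Their groups overlapped. Med16, Med24 and Med25 did not reach 1 FPKM, with highest values of 0.085, 0.15 and 0.11 FPKM in any library.

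In the kinase module, 2 of 7 genes were tested. Ccnc, the cyclin partner of the kinase, was at 13.9, 17.6 and 16.9 FPKM in WT and 27.3, 15.9 and 19.9 FPKM in Lsm14b-KO. The groups overlapped, and the log2 fold change of 0.34 (SE 0.28) had an adjusted p of 0.386. The remaining 5 stayed under 1 FPKM in every library, with highest values of 0.095 FPKM for Cdk19, 0.031 for Med12, 0.35 for Med12l, 0.28 for Med13 and 0.22 for Med13l. Of the 8 untested Mediator genes, 5 were listed at 0 in at least 1 library, and such a 0 can be an estimate that failed. Between the paralogous kinases, Cdk19 held at most 0.81% of the summed Cdk8 and Cdk19 level in any library. Med12l held 62.1% to 100% of the summed Med12 and Med12l level and Med13l held 26.7% to 65.7% of the summed Med13 and Med13l level, at values where a few fragments decide the share. The kinase module as a whole summed to 16.6, 21.9 and 21.3 FPKM in WT and 33.0, 28.4 and 29.8 FPKM in Lsm14b-KO libraries, whereas the middle summed to 5216, 5182 and 4547 FPKM in WT and 3516, 1403 and 1844 FPKM in Lsm14b-KO. The head summed to 387, 422 and 325 FPKM in WT and 251, 95.9 and 182 FPKM in Lsm14b-KO, and the tail to 719, 750.3 and 825 FPKM in WT and 454, 509 and 570 FPKM in Lsm14b-KO. Every module but the kinase module and Med14 was thus lower in summed FPKM in all 3 Lsm14b-KO libraries than in any WT library. Relative to each library's total, the tail went the other way in 2 libraries, with 0.0578%, 0.0640% and 0.0722% of the summed FPKM in WT and 0.0441%, 0.0901% and 0.0842% in Lsm14b-KO. Such sums rest mainly on the most abundant members of a module. Positive fold changes were found in 3 of 7 tested head, 3 of 9 middle and 3 of 6 tail genes. The median log2 fold changes of these modules were -0.28, -0.81 and -0.15.

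The members that passed the test and fell have shorter transcripts than those that passed and rose. Med11, Med10, Med31, Med29 and Med27 are 902, 913, 1161, 1281 and 1686 nt long, and Cdk8 and Med26 are 2973 and 2997 nt long. The tested members longer than 3000 nt, from Med15 to Med1, did not pass. Over the 25 tested members, log2 length and log2 fold change gave r = 0.71 and rho = 0.79, as a description over genes that share the same 6 libraries. Over the 6318 tested genes with a length, r was 0.33 and rho was 0.36, so the trend ran through the whole table and was not limited to Mediator. Among genes under 1000 nt, the median log2 fold change was -0.62 over all tested genes and -1.57 over the 3 Mediator genes. From 1000 to 2000 nt it was -0.32 over all and -0.97 over 9 Mediator genes, and from 2000 to 3000 nt it was 0.027 over all and 0.38 over 5. From 3000 to 5000 nt it was 0.23 over all and 0.34 over 5, and above 5000 nt it was 0.34 over all and 0.38 over 3. After each library was corrected for transcript length and GC content, the members' r was 0.55 and rho was 0.60. The same 7 Mediator genes then passed the test, against 22.5% of all tested genes. Corrected log2 fold changes were -3.57 for Med31, -3.07 for Med11, -1.37 for Med29, -0.97 for Med27, -0.95 for Med10, 0.95 for Med26 and 1.02 for Cdk8.

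**Figure D3:**
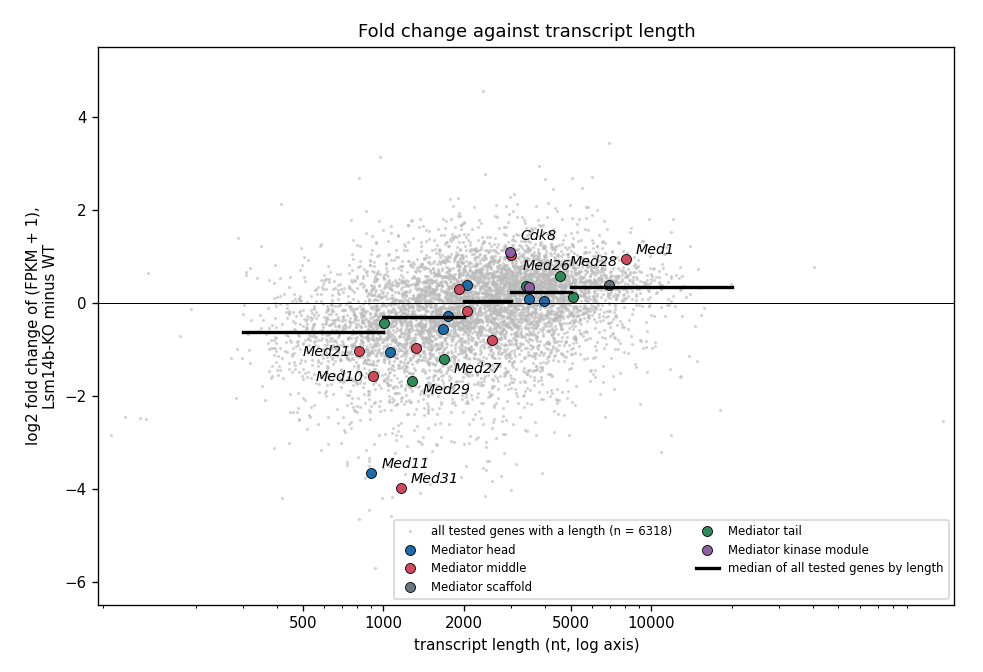
Log2 fold change of (FPKM + 1), Lsm14b-KO minus WT, against transcript length (log axis) for 6318 tested genes (grey) and the 25 tested Mediator genes (coloured by module), with the median of all genes in each length class as black bars. The black bars step up from -0.62 under 1000 nt to 0.34 above 5000 nt, and Med31 and Med11 lie far below the bars of their classes.

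Since the summed FPKM differed between libraries, the members were also compared after scaling each library to the same sum (TPM). This moved the median of all genes by 0.51 on the log2 scale and raised the share of higher calls from 29.5% to 64.7%. Quantile normalization moved the median by 0.14 and gave 42.4% higher calls, and the length and GC correction moved it by 0.18 and gave 44.8%. Under TPM scaling 7 Mediator genes passed, against 20.0% of all genes tested on that scale, with 3 higher and 4 lower. Med27 was lost (log2 fold change -0.52, adjusted p = 0.133) and Ccnc was gained (0.99, adjusted p = 0.0333). Under quantile normalization Med27 was lost as well (-0.39, adjusted p = 0.277), which left 6, against 19.9% of all tested genes. The 7 called genes kept their direction under each of these scalings, but among the uncalled genes Med30 went from -0.44 to 0.25 under TPM scaling, 0.16 under quantile normalization and 0.27 after the length and GC correction. Med21, Med7, Med4 and Med6, which did not pass in FPKM, had -0.34, -0.12, -0.28 and -0.37 under TPM scaling, where the median of all genes was 0.43. The plot of the 5 ways of fitting shows that Med31 and Med11 stayed below the other members throughout.

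**Figure D4:**
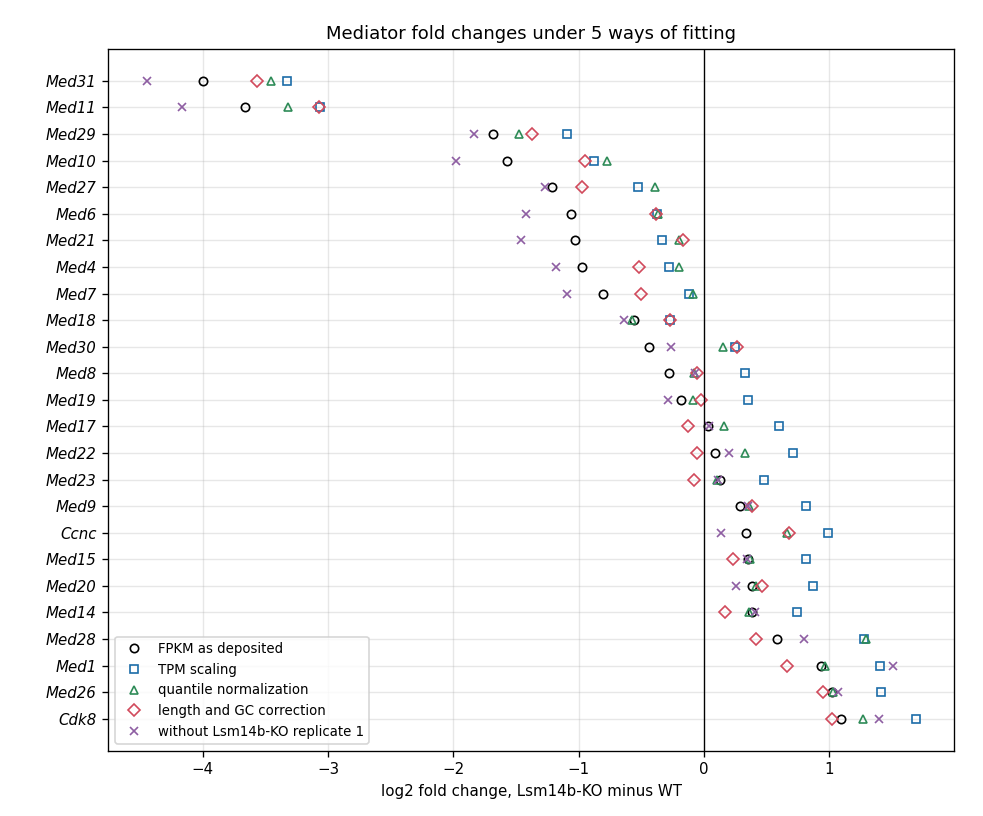
Log2 fold change, Lsm14b-KO minus WT, of the 25 tested Mediator genes under 5 ways of fitting (FPKM as deposited, TPM scaling, quantile normalization, length and GC correction, and without Lsm14b-KO replicate 1). Med31 stayed between -4.45 and -3.33 and Med11 between -4.17 and -3.07, while several uncalled members crossed 0.

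Lsm14b-KO replicate 1, which stood apart in its summed FPKM, was the highest Lsm14b-KO library in 10 of the 13 members with a negative fold change, and Lsm14b-KO replicate 2 was the lowest in 10. Among the 12 members with a positive fold change, replicate 1 was the lowest in 5 and replicate 2 the highest in 8. These orders were not counted over all tested genes, so whether they are particular to Mediator was not tested. Without replicate 1, 14 Mediator genes passed the test, adding Med6, Med18, Med1, Med4, Med7, Med21 and Med28. Their log2 fold changes were then -1.42, -0.63, 1.51, -1.18, -1.09, -1.46 and 0.80, with adjusted p from 0.00115 to 0.0435. Over all genes tested without it, 2952 passed (47.0%), so the members' count rose along with that of all genes. Med31, Med11 and Med29 passed the test whichever library was left out and under every other alternative that was planned, with adjusted p of at most 0.0199, 0.0231 and 0.0388. Med10 and Med27 were each lost when any WT library or Lsm14b-KO replicate 3 was left out, and Med10 also when genes of all levels were tested. Med27 was lost with a replicate block too (adjusted p = 0.0546). When single libraries were left out, Cdk8 and Med26 kept their calls only without Lsm14b-KO replicate 1. Both were also lost when genes of all levels were tested, and Cdk8 with smaller pseudocounts or no variance trend.

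The subunits of RNA polymerase II and the kinases that act beside Mediator in initiation and elongation were taken as neighbours in the pathway. Of 21 such genes 16 were tested and 2 passed, both lower in Lsm14b-KO, against 21.6% of all tested genes in either direction and 15.2% lower. Polr2h, a subunit shared by all nuclear RNA polymerases, was at 4.41, 4.63 and 5.58 FPKM in WT and 1.80, 1.25 and 2.41 FPKM in Lsm14b-KO (log2 fold change -1.07, SE 0.22, adjusted p = 0.0162). Polr2e, also shared by the polymerases, was at 19.5, 14.2 and 15.0 FPKM in WT and 7.09, 7.52 and 10.3 FPKM in Lsm14b-KO (log2 fold change -0.89, SE 0.26, adjusted p = 0.0443). In neither gene did the groups overlap, yet neither passed under TPM scaling or after the length and GC correction. Without Lsm14b-KO replicate 1, 11 of the 16 passed, against 47.0% of all genes tested without it, and both calls were lost with any WT library left out. With the replicate block the count was also 2, but Polr2e was lost (adjusted p = 0.0771) and Polr2k passed in its place (-1.65, adjusted p = 0.0451). Of the 11 tested polymerase genes 10 had a negative fold change in FPKM, with a median of -1.07 beside -0.075 over all tested genes. That median was -0.39 under TPM scaling, -0.36 under quantile normalization and -0.50 after the length and GC correction, and under TPM scaling Polr2b (0.97), Polr2j (0.11) and Polr2c (0.017) were above 0. The 5 tested partner kinase genes (of the CDK7 and CDK9 complexes and their cofactors) had a median of 0.12, which was -0.29 without Lsm14b-KO replicate 1. In FPKM with all 6 libraries, 0 of them passed in limma, with 0 at an unadjusted p under 0.05. Under TPM scaling the median was 0.75, over a set in which Ccnt1 took the place of Cdk7. There 3 had an unadjusted p under 0.05 in limma, and Ccnt1 passed.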

How the data were processed

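The titles of the samples gave genotype and replicate number. Nothing states that the 3 libraries of a genotype came from separate animals, so p-values measure only the spread between these libraries. Per the submitters' processing notes, reads (150 bp pairs) were aligned to mm10 with TopHat2 2.0.13 and FPKM computed with Cufflinks 2.2.1. The annotation is not given in the sources used here. The labels and the study name different library kits, and strand is not stated. Of the 33 Mediator genes, 11 have a deposited locus that holds other genes too. The authors' deposited table holds FPKM per library for 24255 genes in 11 columns, and a spreadsheet had turned 27 symbols into dates. The authors' comparison columns (cuffdiff log2 fold change, p-value and q-value) were not used. Absolute depth is unknown. Relative depth was estimated from the ratio most common among FPKM values under 0.15.

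The test was limma 3.58.1 (R 4.3.3, eBayes with trend, two-sided, genotype as the sole term) on log2(FPKM + 1), for genes that reached 1 FPKM in any of the 6 libraries. P-values were adjusted by Benjamini-Hochberg over 6398 genes. A gene passed at an adjusted p under 0.05. The fits were tested on simulated data. The alternatives were other scalings, pseudocounts (0.1, 0.01), filters and variance settings, a replicate block, and leaving out each library. Lengths and positions came from GENCODE vM21 (98.8% of tested genes had a length), and copies were searched with blastn 2.17.0. A gene's length is that of its longest transcript with a RefSeq entry, or of its longest transcript where none had one. Whether oocytes use that form was not tested. The length and GC correction subtracted a loess fit (span 0.5) in each library. Named genes were Lsm14b, every Mediator gene (values per library where 1 library reached 1 FPKM, otherwise the highest value) and the polymerase and partner kinase genes that passed. The Mediator genes and the lists were chosen with earlier results of these data known.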

Additional observations from a re-analysis of the deposited data

How the results depend on the processing

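The count of Mediator genes past the test (7 of 25) was 4 of 33 when genes of all levels were tested, against 720 of 14325 genes. It ran from 3 to 14 of 25 when libraries were left out, the high end being without Lsm14b-KO replicate 1. Over all genes the count (1383 of 6398) then ran from 321 of 6338 to 2952 of 6280. The polymerase and partner kinase count (2 of 16) was 1 of 21 with genes of all levels. When libraries were left out it was 0 to 11, with 3 to 5 at an unadjusted p under 0.05 in the limma fits that gave 0. It was 1 under TPM scaling (Ccnt1, at 0.91 with adjusted p = 0.0433, which reached the level limit on that scale), 1 under quantile normalization (Polr2h) and 0 in limma after the length and GC correction, where 4 had an unadjusted p under 0.05. The Mediator median log2 fold change (-0.18) was 0.35 under TPM scaling, 0.11 under quantile normalization, -0.054 after the length and GC correction, 0.0018 with genes of all levels, and -0.26 to -0.024 when libraries were left out. Combinations of the length and GC correction were chosen after seeing the data. Without Lsm14b-KO replicate 1 as well, 13 of 25 Mediator genes, 2633 of 6280 genes in all and 5 of 16 polymerase and partner kinase genes passed. The Mediator median was then -0.085, and Med30 turned to 0.77 (adjusted p = 0.0286). With the replicate block as well, the counts were 7 of 25, 1344 of 6398 and 0 of 16 (2 at an unadjusted p under 0.05), and the Mediator median was -0.054. The replicate block alone gave 6 of 25 Mediator genes and 1244 of 6398 genes in all. Libraries with the same number shared only that number: their deviations from the group means correlated at 0.19, -0.13 and 0.018, and not every library correlated best with its own number. The other pseudocounts and variance settings gave 6 or 7 of 25 Mediator genes and 1130 to 1370 of 6398 genes in all. With a mean of at least 1 FPKM asked for, 7 of 22 Mediator genes and 1311 of 5008 genes in all passed. Without the variance trend Cdk8 was lost and Med4 passed (adjusted p = 0.0366). Apart from the length, GC and scaling settings named here, the cause of these shifts was not tested. The 8 untested Mediator genes lie under 1 FPKM, where few fragments decide a value.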

Other observations

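The levels of the RNA polymerase II subunits, chosen here after their values were seen, were also uneven. Polr2a, the gene of the largest subunit with a transcript of 6740 nt, was at 0.077, 0.10 and 0.075 FPKM in WT and 0.44, 0.099 and 0.036 FPKM in Lsm14b-KO. Polr2d, the gene of a small subunit with a transcript of 1015 nt, was at 5468, 5149 and 4406 FPKM in WT and 3925, 1385 and 2167 FPKM in Lsm14b-KO. Short transcripts were not all abundant, since the WT mean was 4.87 FPKM for Polr2h (950 nt), 28.1 FPKM for Polr2f (885 nt) and 16.2 FPKM for Polr2e (1148 nt). Polr2l, with a longer transcript than these (1650 nt), had a WT mean of 1266 FPKM. These lengths are of the longest annotated transcripts chosen as described above, which need not be the forms present in oocytes.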
